A study of Mus musculus with 479 samples.

Results

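Kidneys of mice heterozygous for a modified Dchs1 allele (Dchs1+/-, Het) were compared with kidneys of wild-type littermates (WT). The comparison took every kidney library of the Dchs1 line by its labelled tissue and genotype, which gave 30 Het and 30 WT libraries, 60 of the 479 in the series. The allele was made with VelociGene technology, and both groups were on a C57BL/6NTac background. The series also holds a Fat4 line and heart, liver and lung, of which Fat4 kidney (30 Het and 30 WT libraries) and Dchs1 liver (29 Het and 30 WT libraries) were set beside Dchs1 kidney. Each library is messenger RNA of whole kidney tissue, read as single reads from a strand-specific preparation. The labels give no age, sex or litter, and nothing in them states whether each library is 1 animal, so the p-values cover the spread between libraries, which may be technical. In such whole-tissue RNA, fewer cells of a type and less RNA per cell cannot be told apart.

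Dchs1 encodes a very large cadherin that binds the cadherin Fat4 on the neighbouring cell, and the pair orients cells within a tissue plane. In the developing mouse kidney both act between the stroma and the nephron progenitors, and homozygous loss leads to small, cystic kidneys. Most of the RNA of an adult kidney comes from the proximal tubule, which reclaims glucose, phosphate, amino acids and small peptides, burns fatty acids and, in mice, differs in its late segment between the sexes under androgens. The other genes used as markers of this comparison sit in those pathways. Amacr prepares branched-chain fatty acids for oxidation, Arg2 is the mitochondrial arginase, Odc1 makes the first polyamine from ornithine, and Slco3a1 is an organic anion transporter.

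Total counts ran from 11983844 to 28428592 per Het library (median 19188900) and from 10720364 to 32282525 per WT library (median 19081800). Levels are given in CPM, reads scaled to library size with TMM factors unless stated otherwise. The ranges of the Y chromosome genes and Xist, and every summed level of a marker list, were scaled by library totals alone. Genes of the Y chromosome were read in every library (Ddx3y at 36.8 to 78.1 CPM in Het and 33.4 to 66.2 CPM in WT kidneys), and Xist, the RNA of the inactive X, stayed at or under 0.901 CPM in Het and 0.765 CPM in WT kidneys. The kidney markers were high throughout, with Slc34a1, the sodium phosphate cotransporter, at 978 CPM or more in Het and 1280 CPM or more in WT kidneys. Adrenal genes stood out in 2 Het libraries, replicates 5 and 8. Star, which carries cholesterol into steroid-making mitochondria, was at 12.8 and 16.6 CPM there and at or under 2.28 CPM elsewhere, and the aldo-keto reductase Akr1b7 was at 35.3 and 60.8 CPM against 7.68 CPM or less. The summed adrenal cortex list of 9 genes ran from 3.35 to 127 CPM in Het kidneys (median 5.52) and from 2.94 to 5.90 CPM in WT kidneys (median 4.25).

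One library went against its label in most genes but not in the targeted one. WT replicate 14 held Dchs1 at 8.01 CPM, above the highest Het library (6.68 CPM) and below the other 29 WT libraries (8.85 to 14.8 CPM). Yet on the first principal component, which carried 21.4% of the variance, it lay at 20.6, inside the Het libraries (1.92 to 28.4), whereas the other WT libraries lay at -1.5 or lower. On the TMM scale 17 genes separated all Het libraries from the other 29 WT libraries, 10 of them higher and 7 lower in Het kidneys, and WT replicate 14 fell inside the Het range for 15 of the 17. These 15, named by this rule, were Amacr, Arg2, Chd3, Hsf2bp, Cyb5a, Cbr1, Timp3, Hadhb, Gm15348, Eif3b, Kcnip2, Cyp4a10, Cyp4a14, Fga and Fgg, and the exceptions were Dchs1 and the identifier 807225. Without that library 622 genes passed the test at 1.5-fold or more, and it was nearer to the Het mean than to the mean of the other WT libraries for 81.8% of them, against 1.77 to 46.6% for the other WT libraries and 62.5 to 92.9% for the Het libraries. The other libraries chose these genes and formed both means, which pushes their own shares apart, whereas WT replicate 14 had no part in that choice. Some genes kept WT levels in it, among them the organic anion transporter Slco1a1 at 375 CPM (Het highest 306 CPM) and the fatty acid hydroxylase Cyp4a12a at 142 CPM (Het highest 133 CPM). The library stays in the WT group as labelled, and values that leave it out are given beside the results it touches.

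**Figure D1:**
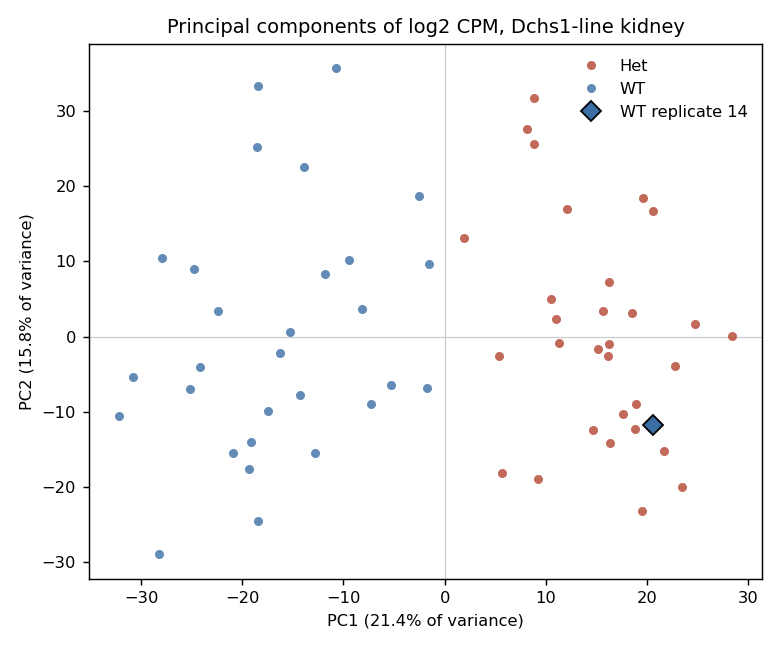
Position of the 60 kidney libraries on the first and second principal components of log2 CPM (21.4 and 15.8% of the variance); each point is 1 library and the diamond marks WT replicate 14. Het libraries lie at 1.92 to 28.4 on the horizontal axis, and all WT libraries but replicate 14 (20.6) lie at -1.5 or lower.

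The targeted gene was lower in all 30 Het libraries than in any WT library. The gene Dchs1 (identifier 233651, chromosome 7, 105752989 to 105788355 of GRCm38.p6) lay between 2.56 and 6.68 CPM (median 5.04) in Het kidneys, against 8.01 to 14.8 CPM (median 10.8) in WT kidneys. The groups did not overlap on this scale, whereas 2 Het libraries lay inside the WT range when reads were scaled by library totals alone and 8 did in TPM. Its mean was 4.85 ± 0.997 CPM in Het and 11.1 ± 1.51 CPM in WT kidneys (SD, n = 30 each), or 43.7% of WT, a log2 fold change (Het minus WT) of -1.19 ± 0.06 (SE) with an adjusted p of 1.02e-22 by edgeR's quasi-likelihood test. Leaving out WT replicate 14 gave -1.19 as well.

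One identifier of the tables, 807225, for which the reference gives no gene symbol, was read in every Het library and in 0 WT libraries. Its counts ran from 9 to 35 per Het library (median 20) and summed to 602, against 0 counts in 30 WT libraries, including WT replicate 14. Pooled over the group and scaled by library totals alone, it was at 1.01 CPM in Het kidneys. This was at least 189-fold higher than the limit that 3 counts over the WT group allow. The same identifier marked the heterozygotes elsewhere. In Fat4 kidney it was read in 30 of 30 Het libraries (36 to 90 counts, median 56) and in 0 of 30 WT libraries, and in Dchs1 liver it was read in 28 of 29 Het libraries (0 to 9 counts, median 4) and in 0 of 30 WT libraries. It was the single identifier read in every Het and no WT kidney library, and 0 identifiers showed the reverse.

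The changes of the binding partner and the relatives of Dchs1 were small. Of the Fat and Dachsous list 6 members were tested, of which Dchs1 fell and Fat4 rose. Fat4 lay between 5.99 and 15.9 CPM (median 10.7) in Het kidneys and between 6.28 and 13.3 CPM (median 9.21) in WT kidneys, and the groups overlapped almost fully. Its log2 fold change was 0.19 ± 0.07 with an adjusted p of 0.0246 (edgeR), and it was 0.16 with an adjusted p of 0.062 without the 2 Het libraries with adrenal genes and -0.10 outside the longest stretch of consecutive library numbers. Fat1, a related cadherin (0.09 ± 0.07), Fjx1, whose fly counterpart modifies such cadherins (-0.06 ± 0.06), the Hippo effector Tead1 (0.03 ± 0.07) and Lix1l (0.00074 ± 0.06) did not pass.

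Around Dchs1 on chromosome 7 the share of changed genes was near that of the rest of the genome. Within 1 Mb, 10 of 19 tested genes passed (52.6%), 8 of them lower and 0 at 1.5-fold or more. Within 10 Mb, 78 of 153 passed (51.0%), 8 of them at 1.5-fold or more (5.23%). Within 5 Mb, 42 of 79 tested genes passed (53.2%), 1 of them at 1.5-fold or more (1.27%), against 47.1% and 3.97% of the genes outside 10 Mb and on other chromosomes. Of the tested genes among the 5 nearest on each side, the ribosomal RNA methyltransferase gene Rrp8 rose by 0.17 ± 0.03 on the log2 scale. The transcription factor subunit Taf10 fell by 0.16 ± 0.05, Timm10b by 0.12 ± 0.05, Gm4070 by 0.36 ± 0.08 and the pseudogene Gm8979 by 0.35 ± 0.13. In Fat4 kidney Gm4070 also fell, by 0.34 ± 0.08 (edgeR adjusted p = 0.00147), and Gm8979 had -0.32 ± 0.14 and did not pass. In Dchs1 liver Gm4070 and Gm8979 fell by 0.98 ± 0.14 and 0.76 ± 0.33. Rrp8, Taf10 and Timm10b passed in neither. Ilk, Tpp1, Mrpl17, Gm15645 and Gm18852 did not pass, with log2 fold changes between -0.27 and 0.02. Ilk overlaps Rrp8 at one end and Taf10 at the other in the annotation, and whether the counting used strand is not given in the sources used here.

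Small differences were widespread. Of 14142 genes tested, 3304 were higher (23.4%) and 3367 lower (23.8%) in Het kidneys at an adjusted p under 0.05 (47.2% in all), with a median absolute log2 fold change of 0.22 among them and a median of 0.01 over all genes tested. A change of at least 1.5-fold passed in 252 genes that were higher (1.78%) and 313 that were lower (2.21%). The shares of 23.4% higher and 23.8% lower are the background for each list count given here. For 894 genes (6.32%) all Het libraries were above the WT median or all were below it. Complete separation of the 30 Het from the 30 WT libraries was seen for 1 gene in each direction (0.00707% each), Dchs1 and the identifier 807225. Within the longest stretch of consecutive library numbers (25 Het and 23 WT libraries), the only stand-in for a batch, 6441 genes passed, and among the 5 Het and 7 WT libraries outside it 1511 passed. With limma on TPM, which changes the measure, the filter and the test together, 4968 of 12684 genes were higher and 1358 lower, with a median log2 fold change of 0.08 over all genes tested there. With the size factors of DESeq2 in place of TMM, 3411 were higher and 3284 lower.

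Amacr and Slco3a1 were lower in Het kidneys and Arg2 and Odc1 changed in opposite directions, with like values within both stretches of library numbers. Amacr (chromosome 15, 10981756 to 10996624) lay between 46.0 and 87.3 CPM (median 59.7) in Het kidneys, against 60.1 to 269 CPM (median 149) in WT kidneys, and the other 29 WT libraries lay at 95.5 CPM or more. It fell by 1.41 ± 0.10 on the log2 scale (edgeR adjusted p = 1.49e-18), with every Het library below the other 29 WT libraries. Slco3a1 (chromosome 7, 74275418 to 74554780) was at 76.1 to 156 CPM (median 108) in Het and 132 to 249 CPM (median 199) in WT kidneys. It fell by 0.84 ± 0.06 (adjusted p = 1.22e-17), with 2 Het libraries inside the WT range. The overlap in Amacr came from 1 WT library, replicate 14, whose 60.1 CPM lay within the Het range.

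Arginine and ornithine genes moved in opposite directions around ornithine. Arg2 (chromosome 12, 79130788 to 79156301), which makes ornithine, ran from 10.5 to 22.9 CPM (median 15.4) in Het kidneys, against 3.49 to 12.5 CPM (median 5.78) in WT kidneys, where 12.5 CPM was WT replicate 14 and the next highest 8.75 CPM. Odc1 (chromosome 12, 17544808 to 17551502), which uses ornithine, ran from 152 to 306 CPM (median 206) in Het kidneys, against 224 to 1290 CPM (median 514) in WT kidneys. Arg2 rose by 1.34 ± 0.09 and Odc1 fell by 1.44 ± 0.11 on the log2 scale (edgeR adjusted p = 2.46e-18 and 4.50e-17). Within the longest stretch of library numbers the log2 fold changes were 1.3 for Arg2, -1.40 for Odc1, -1.41 for Amacr and -0.83 for Slco3a1, and outside it they were 1.52, -1.56, -1.37 and -0.84.

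**Figure D2:**
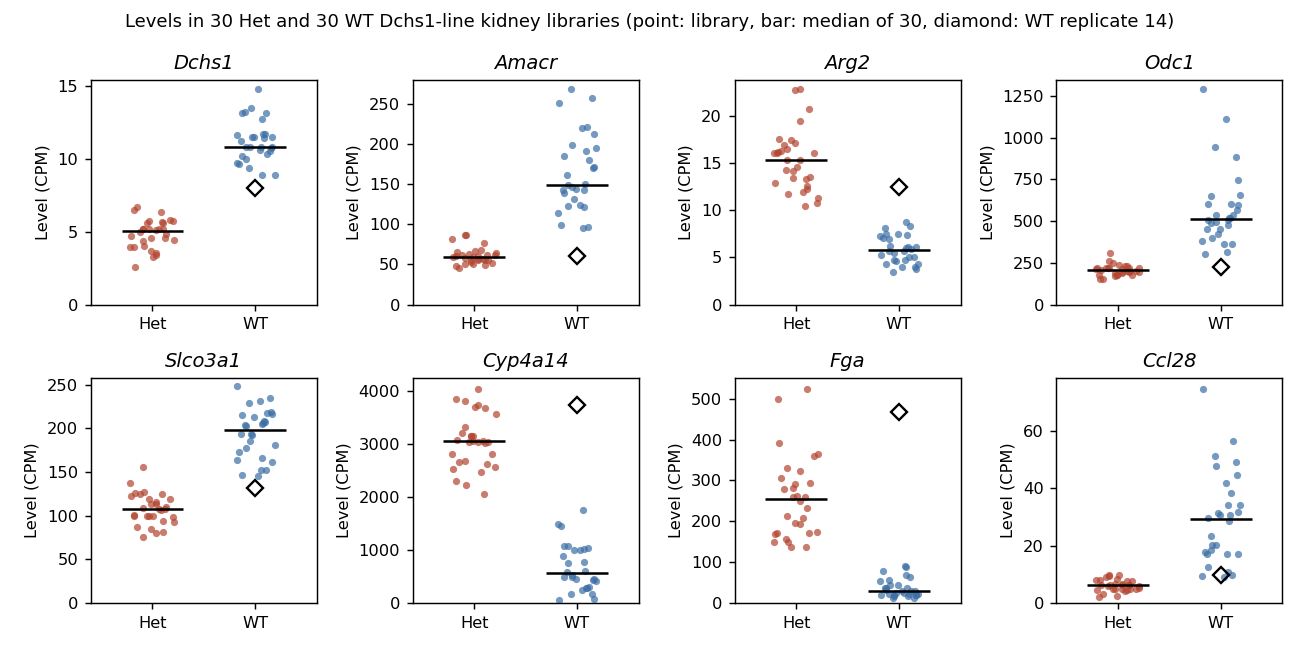
Levels of Dchs1, Amacr, Arg2, Odc1, Slco3a1, Cyp4a14, Fga and Ccl28 in each kidney library, in TMM-scaled CPM on linear axes from 0, Het left of WT; each point is 1 library, the bar is the median of 30 and the diamond marks WT replicate 14. Dchs1 alone shows no overlap between the groups, and WT replicate 14 lies inside the Het range for each plotted gene except Dchs1 and Ccl28.

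The other polyamine and arginine genes did not follow as groups. Of 21 polyamine genes tested 3 rose and 6 fell (median log2 fold change -0.03, and 0.04 with limma on TPM). Beside Odc1 the spermine synthase Sms fell by 0.30 ± 0.04 and the antizyme Oaz2, which marks ornithine decarboxylase for breakdown, fell by 0.46 ± 0.04, and Slc3a2, the heavy chain shared by several amino acid transporters, rose by 0.51 ± 0.05. Of 22 arginine, ornithine and creatine genes 8 rose and 5 fell, beside 23.4% higher and 23.8% lower over all genes tested. Prodh2, which breaks down hydroxyproline, rose by 0.63 ± 0.07, while Gamt, the last enzyme of creatine synthesis, fell by 0.73 ± 0.10 and Ddah1, which clears methylated arginine, fell by 0.25 ± 0.03.

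Beside the markers, the smallest p-values belonged to genes of several unrelated functions. Chd3, a chromatin remodeller, was at 271 to 332 CPM (median 299) in Het and 296 to 549 CPM (median 424) in WT kidneys, a fall of 0.51 ± 0.04 on the log2 scale (edgeR adjusted p = 9.02e-18). Cndp2, which splits dipeptides in the cytosol, fell to a median of 307 CPM in Het kidneys, against 672 CPM in WT kidneys, and its relative Cndp1 to 25.2 CPM in Het, against 49.5 CPM in WT. Hsf2bp, known for its part in meiotic recombination, fell by 1.76 ± 0.13, the electron carrier Cyb5a by 0.69 ± 0.05, the lipid droplet protein Cideb by 0.71 ± 0.05 and 4931406C07Rik by 0.65 ± 0.05. Slc23a3, a member of the ascorbate transporter family, was the single gene beside Arg2 that was higher among the 12 smallest p-values of genes with a mean of at least 1 CPM, at 7.09 to 16.8 CPM (median 11.5) in Het and 3.27 to 9 CPM (median 5.37) in WT kidneys.

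The largest falls were mostly in genes at low levels. The chemokine Ccl28 lay between 2.02 and 9.67 CPM (median 6.19) in Het kidneys, against 9.08 to 74.8 CPM (median 29.2) in WT kidneys, which left a narrow overlap. Gm1653 fell by 2.55 ± 0.20, the scaffold Anks1b by 2.37 ± 0.19, the T-box factor Tbx10 by 1.99 ± 0.18, the collagen gene Col19a1 by 1.96 ± 0.17 and Ctxn3 by 1.83 ± 0.22 on the log2 scale. Among them were 3 genes of steroid metabolism. The steroid dehydrogenase genes Hsd3b2 and Hsd3b3 had medians of 7.06 and 6.94 CPM in Het kidneys, against 24.5 and 23.1 CPM in WT kidneys, and Srd5a2, which converts testosterone to its more active form, had 0.834 CPM in Het against 2.67 CPM in WT. Reads can be divided wrongly among the near-identical Hsd3b copies, so single members of that family are uncertain. WT replicate 14 was the highest of all 60 libraries for Ctxn3 (23.2 CPM) and the lowest WT library for Hsd3b2 (4.71 CPM) and Hsd3b3 (7.19 CPM).

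Among the largest rises was Ugt1a10, a glucuronosyltransferase (chromosome 1, 88055411 to 88220002), at 1.82 to 41.3 CPM (median 9.57) in Het and 0 to 4.71 CPM (median 0.995) in WT kidneys. It rose by 3.15 ± 0.26 on the log2 scale (edgeR adjusted p = 1.20e-15). Ugt1a genes share their last exons, so the division of reads among them is uncertain, and of 14 UDP glucuronosyltransferases tested 5 rose, with Ugt1a2 at 1.62 ± 0.22, and 4 fell, with Ugt2b38 at -0.78 ± 0.10 and Ugt2b37 at -0.97 ± 0.14. Mtarc1, a mitochondrial reductase, rose by 2.41 ± 0.25, Bhmt, which remethylates homocysteine, by 1.70 ± 0.15, Eif4ebp3, a translation inhibitor, by 1.70 ± 0.24 and the carbonyl reductase Cbr3 by 1.69 ± 0.16. One gene of this group, Atp6v0c-ps2, a pseudogene, had a log2 fold change of 1.87 ± 0.75 that rests on a few libraries. It was at 188 to 220 CPM in 5 Het libraries and 1 WT library and at 6.26 CPM or less in all others, with medians of 1.02 CPM in Het and 1.56 CPM in WT kidneys.

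The 3 fibrinogen chains rose together. Their genes lie side by side on chromosome 3 (Fgg at 83007724 to 83015056, Fga at 83026153 to 83033627 and Fgb at 83042246 to 83049863 of GRCm38.p6), the liver makes most plasma fibrinogen, and in rodent kidney the chains are known as injury-induced transcripts. The 250 bases before each gene start are shown because the 3 genes moved as a block and acute phase promoters, fibrinogen among them, carry a known interleukin-6 response element. The sequences are from RefSeq (GRCm38.p6), 5′ to 3′ on the strand of the gene, at chr3:83025903-83026152 (plus strand) for Fga, chr3:83049864-83050113 (minus strand) for Fgb and chr3:83007474-83007723 (plus strand) for Fgg, with CTGGGAA in capitals.
Fga: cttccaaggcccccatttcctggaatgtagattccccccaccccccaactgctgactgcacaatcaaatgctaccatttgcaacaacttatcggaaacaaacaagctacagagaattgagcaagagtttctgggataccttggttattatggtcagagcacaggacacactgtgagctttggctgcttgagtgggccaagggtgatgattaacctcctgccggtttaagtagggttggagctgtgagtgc
Fgb: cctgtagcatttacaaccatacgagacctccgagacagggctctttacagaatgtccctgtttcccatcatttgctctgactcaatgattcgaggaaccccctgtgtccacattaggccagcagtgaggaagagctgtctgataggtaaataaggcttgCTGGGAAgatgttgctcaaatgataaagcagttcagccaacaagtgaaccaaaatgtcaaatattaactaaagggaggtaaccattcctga
Fgg: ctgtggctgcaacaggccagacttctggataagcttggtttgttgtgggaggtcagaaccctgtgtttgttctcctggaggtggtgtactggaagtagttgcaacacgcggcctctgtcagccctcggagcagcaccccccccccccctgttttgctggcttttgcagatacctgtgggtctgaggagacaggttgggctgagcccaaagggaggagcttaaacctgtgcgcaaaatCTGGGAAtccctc

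Fgb holds the letters CTGGGAA starting 91 bases before its gene start, Fgg holds them starting 13 bases before, and Fga has no match in this window on either strand. Of 32851 promoters of the same length 2990 hold the motif on either strand (9.10%), so a match is a description of the letters only. Fga lay between 136 and 525 CPM (median 254) in Het kidneys, against 11 to 468 CPM (median 28.9) in WT kidneys, where 468 CPM was WT replicate 14 and the other 29 libraries reached 90.0 CPM. Fgg was at 28.1 to 121 CPM (median 53.6) in Het and 2.93 to 92.9 CPM (median 6.59) in WT kidneys, and Fgb at 2.08 to 16.5 CPM (median 5.85) in Het and 0.154 to 6.05 CPM (median 0.75) in WT kidneys. Without WT replicate 14 no Het library of Fga or Fgg overlapped the WT libraries. The log2 fold changes were 2.33 ± 0.26 for Fga, 2.37 ± 0.24 for Fgg and 2.45 ± 0.25 for Fgb (edgeR adjusted p = 3.53e-11, 1.31e-12 and 2.96e-12), and 2.82, 2.81 and 2.67 without that library.

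Other liver-type and injury genes moved less evenly. Of 12 fibrinogen and coagulation genes tested 3 rose, all of them fibrinogen chains, and 2 fell, with tissue factor F3 at -0.36 ± 0.07. Over all genes tested 23.4% were higher and 23.8% lower. The acute phase and complement list had 6 of 10 higher and 1 lower, with ceruloplasmin Cp at 0.81 ± 0.07, complement C3 at 0.93 ± 0.14, lipocalin Lcn2 at 0.84 ± 0.20 and factor B, Cfb, at -0.23 ± 0.05. Hepatocyte genes, listed as markers of another cell type, had 4 of 8 tested members higher and 2 lower. Their summed level over 12 genes was 944 to 2087 CPM (median 1571) in Het and 966 to 2282 CPM (median 1632) in WT kidneys. Apob, the core protein of lipoproteins, rose by 0.91 ± 0.11 and Apoc3 by 0.97 ± 0.10, and the retinol carrier Ttr fell by 1.27 ± 0.13. Albumin, Alb, which was named after its values were seen, averaged 5.6 CPM in Het and 3.64 CPM in WT kidneys. Of 15 genes of tubular injury and repair 8 rose and 1 fell, with the progenitor factor Sox9 at 1.23 ± 0.20, osteopontin Spp1 at 0.47 ± 0.07 and keratin Krt18 at 0.38 ± 0.07.

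Genes under PPAR alpha, the receptor that switches on fatty acid use in fasting, rose as a group. Of 23 tested 21 rose and 0 fell, with a median log2 fold change of 0.71 beside 0.01 for all genes, and the count was the same without WT replicate 14. Cyp4a14 (chromosome 4, 115486200 to 115496158), which hydroxylates fatty acids at their far end, was at 2060 to 4040 CPM (median 3050) in Het kidneys, against 60.8 to 3740 CPM (median 558) in WT kidneys, where the libraries other than replicate 14 reached 1760 CPM. Its log2 fold change was 1.99 ± 0.23 (edgeR adjusted p = 1.05e-10) and 2.20 without WT replicate 14. The WT libraries thus spread far more widely than the Het libraries. Ehhadh, a peroxisomal oxidation enzyme, had medians of 2850 CPM in Het and 1340 CPM in WT kidneys, and the thioesterase Acot1 had 439 CPM in Het and 194 CPM in WT kidneys.

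The Cyp4a family split by member. Of 6 tested, Cyp4a14, Cyp4a10 (1.18 ± 0.11), Cyp4a12b (0.71 ± 0.09), Cyp4a32 (0.71 ± 0.17) and Cyp4a31 (0.35 ± 0.05) rose. Cyp4a12a, the androgen-dependent member, fell by 1.44 ± 0.13 and lay between 21.8 and 133 CPM (median 64.1) in Het kidneys, against 86.4 to 270 CPM (median 182) in WT kidneys. Cyp4a12a and Cyp4a12b are near-identical copies, so the division of reads between them is uncertain. Of 19 genes of mitochondrial fatty acid oxidation 12 rose and 3 fell. Both subunits of the trifunctional protein rose, Hadha by 0.50 ± 0.04 and Hadhb by 0.49 ± 0.04, as did the carnitine carrier Slc25a20 by 0.40 ± 0.05, whereas the short-chain dehydrogenase Acads fell by 0.36 ± 0.04. Of 21 peroxisomal genes 11 rose and 5 fell, and the falls took in Amacr, the reductase Pecr (-0.77 ± 0.06) and the phytanic acid enzyme Phyh (-0.35 ± 0.04), which act on branched or very long chains.

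Genes that are high in male mouse kidney mostly fell. Of 20 tested 15 fell and 3 rose, with a median log2 fold change of -0.73. Cyp2j13, an epoxygenase, had a median of 94.7 CPM in Het and 217 CPM in WT kidneys, and Nudt19, which cleaves coenzyme A, had 256 CPM in Het and 500 CPM in WT kidneys. Odc1 and Ccl28 belong to the same list, and so does Bhmt, whose 1.70 ± 0.15 was the largest rise in it. Genes listed as high in female kidney moved both ways, with 5 of 11 higher and 4 lower (median -0.03, and 0.21 with limma on TPM). Among the listed genes the organic ion transporter Slc22a22 fell by 1.32 ± 0.12 and Ly6a by 0.65 ± 0.06. The glutathione transferase Gsta2 rose by 0.83 ± 0.08, and Cyp4a14, at 1.99 ± 0.23, had the largest rise of the list. The sex bias of single members, Slc22a22 among them, was not checked here. In WT replicate 14 the named members of the male-high list differed. Odc1 (224 CPM), Cyp2j13 (130 CPM) and Nudt19 (306 CPM) lay inside the Het range, and Bhmt (5.33 CPM) lay inside the ranges of both groups. Ccl28 at 9.72 CPM was just above the Het range, and Cyp4a12a and Slco1a1 were above it as given earlier.

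Markers of the late segment of the proximal tubule fell. Of its 12 markers 7 fell and 1 rose (median -0.53), and their summed level was 2909 to 6305 CPM (median 3888) in Het and 3590 to 9051 CPM (median 5937) in WT kidneys. Slc7a13, an aspartate and glutamate transporter, had medians of 156 CPM in Het and 404 CPM in WT kidneys, the phospholipid flippase Atp11a had 438 CPM in Het and 1100 CPM in WT kidneys, and Acsm3, which activates medium-chain fatty acids, had 562 CPM in Het and 911 CPM in WT kidneys. The early segments had 6 of 16 markers lower and 3 higher, beside 23.8% lower and 23.4% higher over all genes tested. Their summed level was 12095 to 19340 CPM (median 14846) in Het and 9815 to 19437 CPM (median 15102) in WT kidneys. Among these markers Slc34a1 fell by 0.63 ± 0.06, the inositol oxygenase Miox by 0.59 ± 0.04 and Fbp1, an enzyme of glucose synthesis, by 0.32 ± 0.05, and the sulfate transporter Slc13a1 rose by 0.33 ± 0.08.

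Transporters and peptidases of the tubule were shifted in mixed directions. Of 18 Slc22 organic ion transporters 11 fell and 6 rose (median -0.32), with Slc22a2, the organic cation transporter, at -0.46 ± 0.05, Slc22a18 at -0.58 ± 0.05 and Slc22a28 and Slc22a30 at -1.04 ± 0.11 and -1.07 ± 0.12. Of 8 Slco members tested, Slco3a1, Slco1a1 (-1.41 ± 0.13) and Slco1a6 (-0.66 ± 0.09) fell, Slco4c1 (0.96 ± 0.17), Slco2b1 (0.35 ± 0.06), Slco4a1 (0.24 ± 0.10) and Slco2a1 (0.18 ± 0.04) rose, and Slco1a4 had 0.28 ± 0.17 and did not pass. Slco1a4 passed without WT replicate 14, whose 48.0 CPM exceeded all other WT libraries (3.78 to 15.9 CPM), and its log2 fold change was then 0.47. Amino acid transporters had 12 of 22 higher and 3 lower, among them the glutamine transporter Slc38a3 (0.88 ± 0.11) and Slc43a2 (0.40 ± 0.05). Dipeptidases and brush border peptidases had 10 of 17 lower and 4 higher, with Anpep at -0.47 ± 0.06 and gamma-glutamyl transferase Ggt1 at -0.47 ± 0.05 beside the Cndp genes.

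Markers of the distal nephron were more often higher than lower, whereas 23.4% of all genes tested were higher and 23.8% lower. The thick ascending limb had 6 of 10 higher and 2 lower, the distal convoluted tubule 5 of 10 higher and 1 lower, the connecting tubule and principal cells 5 of 12 higher and 3 lower, and the intercalated cells 7 of 12 higher and 1 lower, with medians of 0.20, 0.16, 0.11 and 0.18. Egf, the growth factor made by these limbs, lay between 426 and 969 CPM (median 631) in Het kidneys, against 212 to 726 CPM (median 384) in WT kidneys, with much overlap, and rose by 0.69 ± 0.09. The calcium-sensing receptor Casr and the calcium buffer Calb1 rose by 0.70 ± 0.13 each and the magnesium channel Trpm6 by 0.66 ± 0.10. The sodium channel subunits Scnn1a and Scnn1b rose by 0.54 ± 0.06 and 0.37 ± 0.06, the anion exchangers Slc4a9 and Slc26a4 of intercalated cells by 0.47 ± 0.05 and 0.45 ± 0.08, and the water channel Aqp2 fell by 0.41 ± 0.10. Genes of the renin angiotensin system had 5 of 11 higher and 2 lower, with angiotensinogen Agt at 0.52 ± 0.06, and renin itself, Ren1, at 0.52 ± 0.12, while the converting enzyme Ace was at -0.66 ± 0.10.

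**Figure D3:**
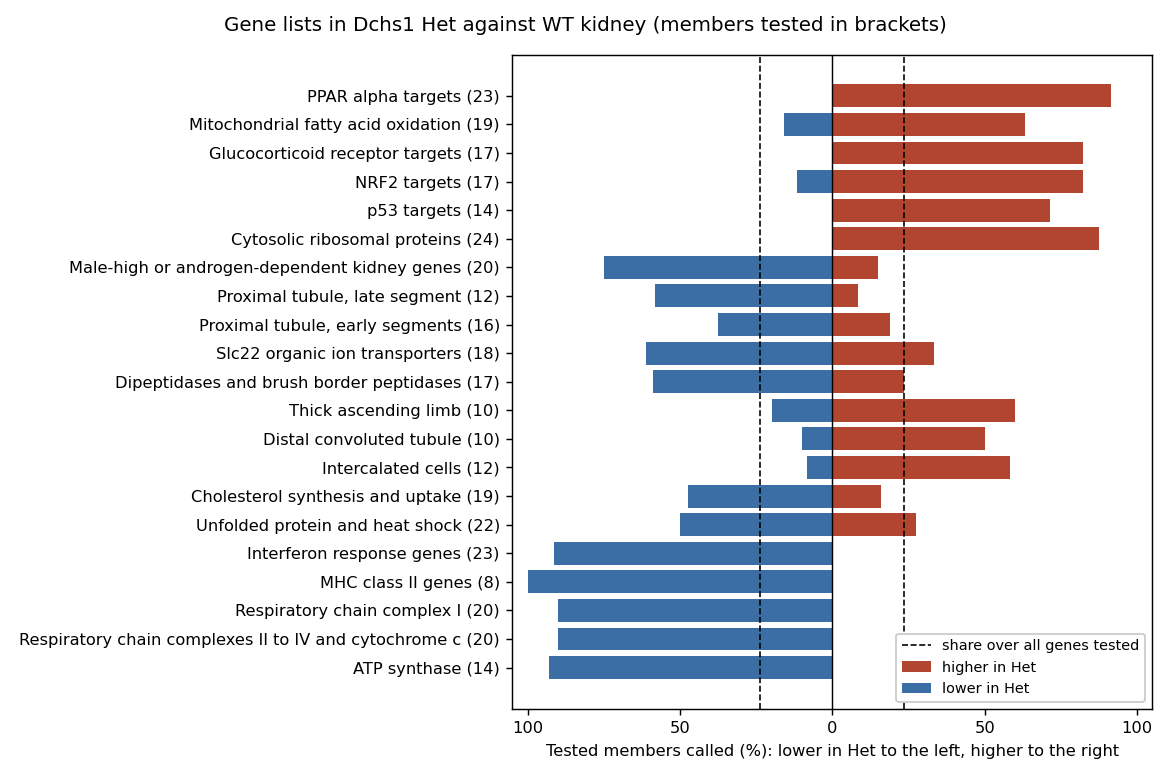
Percent of the tested members of 21 gene lists that passed the edgeR test as higher (bars to the right) or lower (bars to the left) in Het kidneys, with the number tested in brackets; the dashed lines mark the shares over all genes tested (23.4% higher and 23.8% lower). PPAR alpha targets stand furthest to the right among the lists (21 of 23), and the MHC class II bar reaches the left end (8 of 8).

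Targets of the glucocorticoid receptor, p53 and NRF2 rose. Of 17 glucocorticoid receptor targets 14 rose and 0 fell (median 0.75). The salt-regulating kinase Sgk1 had a median of 144 CPM in Het and 74.4 CPM in WT kidneys, and the metallothioneins Mt1 and Mt2 had 99.6 and 49.0 CPM in Het against 53.6 and 24.6 CPM in WT kidneys. Of 14 p53 targets 10 rose and 0 fell (median 0.37). Cdkn1a, the cell cycle inhibitor, was at 21.4 to 85.5 CPM (median 47.1) in Het and 9.66 to 78.6 CPM (median 17.2) in WT kidneys, where 78.6 CPM was WT replicate 14 and the others reached 31.5 CPM. Mdm2, which degrades p53, rose by 0.36 ± 0.04, Phlda3 by 0.56 ± 0.11 and Btg2 by 0.37 ± 0.08. Without WT replicate 14 the counts were 16 of 17 glucocorticoid and 12 of 14 p53 targets. Targets of NRF2, the oxidant sensor, had 14 of 17 higher and 2 lower, with the quinone reductase Nqo1 at 0.62 ± 0.07 and the exporter Abcc4 at 0.88 ± 0.08, and Cdkn1a stands in the injury, glucocorticoid and p53 lists at once.

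Clock genes shifted in both directions. Of 20 tested 8 rose and 6 fell, beside 23.4% higher and 23.8% lower over all genes tested. Arntl, the activator, rose by 0.40 ± 0.06 and Cry1, a late repressor, by 0.88 ± 0.10, whereas the output factor Dbp, which peaks at another time of day than Arntl, fell by 1.68 ± 0.19 and Per3 by 0.65 ± 0.09. Dbp ran from 1.38 to 5.78 CPM (median 2.79) in Het kidneys, against 2.17 to 31.4 CPM (median 7.80) in WT kidneys, where 2.17 CPM was WT replicate 14 and the others were at 3.27 CPM or more. The labels give no time of collection, and its part in these values was not tested.

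Immune genes were lower. Of 23 interferon response genes 21 fell and 0 rose (median -0.37), of 8 MHC class II genes 8 fell (median -0.50) and of 11 class I presentation genes 9 fell (median -0.21). Nlrc5, the activator of class I genes, had a median of 2.66 CPM in Het and 4.88 CPM in WT kidneys, the class II gene H2-Ab1 had 26.9 CPM in Het and 39.6 CPM in WT, and the invariant chain Cd74 had 83.8 CPM in Het and 109 CPM in WT. The antiviral gene Oasl2 fell by 0.58 ± 0.08 and the nucleic acid sensor Zbp1 by 0.85 ± 0.13. With limma on TPM, where 20, 6 and 10 members of these lists were tested, 14 interferon genes were lower and 1 higher, all 6 class II genes were lower and 3 class I genes were lower.

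Markers of macrophages and of T, NK and B cells were more often lower than higher, and no neutrophil marker passed by edgeR. Macrophage and dendritic cell markers had 6 of 12 lower and 0 higher, with a summed level of 64.9 to 125 CPM (median 82.3) in Het and 68.1 to 104 CPM (median 90.6) in WT kidneys. T and NK cell markers had 7 of 8 lower, at a sum of 4.86 to 10.7 CPM (median 6.77) in Het and 6.12 to 15.1 CPM (median 8.67) in WT kidneys, and B and plasma cell markers had 3 of 4 lower, at 2.17 to 5.86 CPM (median 3.81) in Het and 2.70 to 7.37 CPM (median 5.35) in WT kidneys. The macrophage genes Aif1 and Itgax fell by 0.94 ± 0.15 and 0.74 ± 0.12 and the T cell kinase Lck by 0.49 ± 0.10. Neutrophil markers had 0 of 4 that passed by edgeR (0 at an unadjusted p under 0.05, 0 by DESeq2, 1 higher by limma). Their summed level was 3.97 to 15.4 CPM (median 10.3) in Het and 5.03 to 15.4 CPM (median 8.11) in WT kidneys. Erythroid markers had 3 of 8 lower, beside 23.8% of all genes tested, with Hba-a1 at -0.32 ± 0.11, and 0 lower with limma on TPM. Their summed level was 633 to 1918 CPM (median 1065) in Het and 788 to 2298 CPM (median 1211) in WT kidneys. The part of these cells in the interferon and MHC values was not tested.

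Mitochondrial respiration genes fell by small amounts and ribosomal protein genes rose by small amounts, and the first of these counts was smaller with limma on TPM. Complex I had 18 of 20 lower, complexes II to IV with cytochrome c 18 of 20 and ATP synthase 13 of 14, with 0 higher in each and medians of -0.18, -0.18 and -0.20. With limma on TPM 7, 5 and 6 of them were lower, with medians of -0.09, -0.09 and -0.12. All genes tested in that run had a median of 0.08, with 4968 of 12684 higher and 1358 lower. The largest of the named changes was in cytochrome c, Cycs, with medians of 235 CPM in Het and 355 CPM in WT kidneys and a log2 fold change of -0.59 ± 0.06. Sdhc fell by 0.25 ± 0.03, Ndufs8 by 0.28 ± 0.04 and Atp5k by 0.32 ± 0.06. Of 15 citrate cycle genes 9 fell and 1 rose, with Mdh2 at -0.19 ± 0.03, and 2 fell and 2 rose with limma on TPM. Of 24 cytosolic ribosomal proteins 21 rose and 0 fell (median 0.15), with Rpl5 at 0.19 ± 0.03. With limma on TPM all 24 were higher, with a median of 0.25.

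Protein folding and sterol genes were mixed with larger single falls. The unfolded protein and heat shock list had 11 of 22 lower and 6 higher, with the endoplasmic reticulum chaperones Calr at -0.47 ± 0.05 and Hsp90b1 at -0.41 ± 0.04 and the disulfide isomerase Pdia6 at -0.35 ± 0.05. Under limma on TPM the list had 8 higher and 6 lower. Of 19 genes of cholesterol synthesis and uptake 9 fell and 3 rose, with Idi1 at -1.11 ± 0.12, Mvd at -0.60 ± 0.06 and Fdft1 at 0.32 ± 0.04. Autophagy and lysosome regulators had 6 of 16 higher and 2 lower, beside 23.4% higher and 23.8% lower over all genes tested. The mitophagy receptor Bnip3 was at 135 to 331 CPM (median 200) in Het and 106 to 323 CPM (median 123) in WT kidneys, where 323 CPM was WT replicate 14 and the others reached 161 CPM.

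Of the pathways tied to Dchs1 itself, the planar cell polarity and YAP and TAZ target lists held more rises than the 23.4% of all genes, while the Hippo, cap mesenchyme and cyst lists had shares near or below the 23.4% higher and 23.8% lower of all genes. Core planar cell polarity genes had 7 of 14 higher and 1 lower, with Prickle1 at 0.29 ± 0.05, the receptor Fzd3 at 0.33 ± 0.06, Dvl3 at 0.22 ± 0.06 and Scrib at 0.15 ± 0.03. Of 19 Hippo kinases and effectors 4 rose and 2 fell, with the scaffold Wwc1 at 0.38 ± 0.05 and Nf2 at -0.11 ± 0.02. YAP and TAZ targets, the readout of that pathway, had 11 of 20 higher and 3 lower (median 0.17), with Amotl2 at 0.42 ± 0.06, Myof at 0.42 ± 0.05 and Ajuba at 0.28 ± 0.04. Cap mesenchyme and ureteric bud genes had 2 of 8 higher and 1 lower, with the receptor Gfra1 at 0.75 ± 0.12 and Wnt9b at -0.29 ± 0.10. Cyst and cilium genes had 4 of 20 lower and 2 higher, with the ciliary motor gene Kif3a at -0.18 ± 0.04. Kif3a also fell in Fat4 kidney, by 0.15 ± 0.04 (edgeR adjusted p = 0.00412). With limma on TPM the cyst list had 7 of 19 higher and 1 lower, and the Hippo list 7 of 19 higher and 0 lower. Over all genes tested in that run 4968 of 12684 were higher and 1358 lower. All but Gfra1 of the genes named in these lists changed by less than 1.5-fold.

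Glomerular, vascular and stromal markers passed at shares near or below the 23.4% higher and 23.8% lower of all genes. Podocytes had 3 of 10 higher (Wt1 at 0.30 ± 0.05), endothelium 2 of 12 higher and 1 lower, and stroma and matrix 2 of 16 higher and 4 lower. The stromal falls were collagens, with Col6a3 at 4.93 to 14.3 CPM (median 8) in Het and 4.96 to 19 CPM (median 14.6) in WT kidneys and Col3a1 at -0.50 ± 0.13. Adipocyte markers had 2 of 8 higher and 1 lower, with the lipid droplet protein Cidec at 1.12 ± 0.24. The summed adipocyte list ran from 93.3 to 529 CPM (median 295) in Het and from 78.2 to 521 CPM (median 236) in WT kidneys. Urothelial markers had 1 of 7 higher and 2 lower, and proliferation genes 4 of 15 higher and 2 lower. The 2 adrenal genes tested, Star and Akr1b7, both passed (1.01 ± 0.23 and 1.16 ± 0.28), and their fold changes rest on the 2 Het libraries named above.

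Across WT libraries some of the changed genes examined, Cyp4a14, Odc1, Fga and Arg2, also varied together. Of 20 pairs examined within 1 genotype each, with p-values from permutation tests adjusted by Benjamini-Hochberg over the 20, Cyp4a14 and Odc1 in WT kidneys had a Pearson's r of -0.89 and a Spearman's rho of -0.89 (n = 30, raw p = 1e-05 for both, the smallest the permutations can give, adjusted p = 0.0001 for both). The r was -0.892 without the 2 libraries farthest from the median of Cyp4a14 and -0.868 without WT replicate 14, and within the stretches of library numbers it was -0.94 in 23 libraries and -0.704 in 7. In Het kidneys the same pair had r = -0.295 and rho = -0.276 (permutation p = 0.112 and 0.142, adjusted p = 0.245 and 0.302). Whether the 2 coefficients differ was not tested, and Cyp4a14 spans a far narrower range in Het than in WT kidneys. Cyp4a14 and Fga had r = 0.756 and rho = 0.788 in WT kidneys (permutation p = 1e-05, adjusted 0.0001, for both) and r = 0.542 and rho = 0.512 in Het kidneys (permutation p = 0.00187 and 0.00442, adjusted 0.00935 and 0.0206). Without the 2 libraries farthest from the median the r in Het kidneys was 0.43 (permutation test, raw p = 0.0217, adjusted p = 0.109), so the adjusted call, rather than the direction, rests on those libraries.

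No relation between the level of Dchs1 and these genes within a genotype passed. Its 12 pairs with Amacr, Arg2, Odc1, Slco3a1, Cyp4a14 and Fga had r between -0.375 and 0.0598, and 0 passed after adjustment by permutation test (2 had an unadjusted p under 0.05, with Arg2 and Cyp4a14 in Het kidneys, 0.0405 and 0.0409). In WT kidneys Cyp4a14 with Arg2 had r = 0.575 and rho = 0.543 (permutation p = 0.00091 and 0.00221, adjusted 0.00607 and 0.0147), and r = 0.471 without WT replicate 14 (permutation test, adjusted p = 0.051). Arg2 with Odc1 had r = -0.517 and rho = -0.503 (permutation p = 0.00364 and 0.00516, adjusted 0.0146 and 0.0206). Without the 2 farthest libraries its r was -0.308 and without WT replicate 14 it was -0.385 (permutation tests, raw p = 0.112 and 0.0404, adjusted p = 0.319 and 0.117), so the adjusted call rests on those libraries. Within the stretches of library numbers its r was -0.62 in 23 libraries and -0.0632 in 7.

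**Figure D4:**
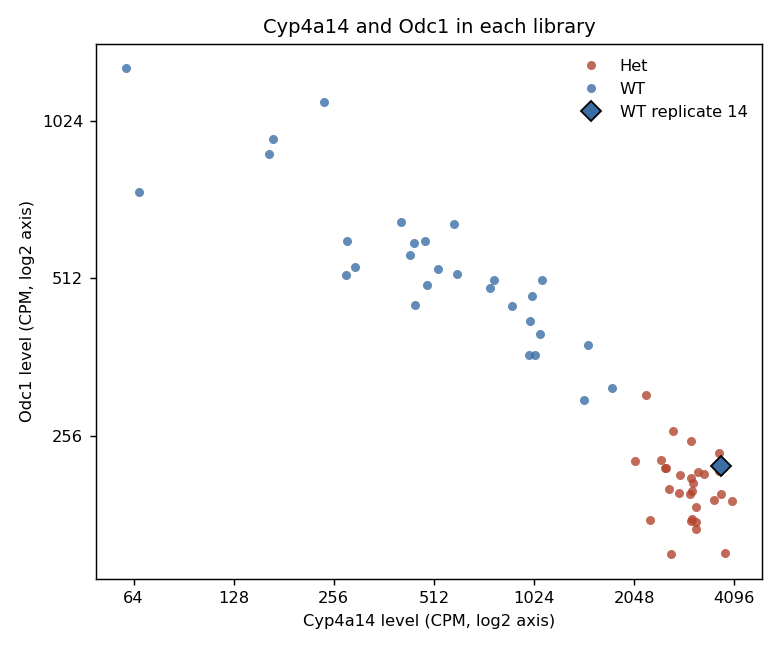
Odc1 against Cyp4a14 in the 60 kidney libraries, both in TMM-scaled CPM on log2 axes; each point is 1 library and the diamond marks WT replicate 14. WT libraries fall along a line from low Cyp4a14 and high Odc1 to the reverse (r = -0.89), and Het libraries cluster at 2060 to 4040 CPM of Cyp4a14 and 152 to 306 CPM of Odc1.

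Fat4 heterozygous kidney, with control libraries of its own, differed from Dchs1 kidney in many of these genes. Within Fat4 kidney alone 2393 of 14014 genes passed (17.1%). A test of the difference between the Het effects of the lines (Dchs1 minus Fat4) passed for 4802 of 14353 genes (33.5%). Slco3a1 averaged 203 ± 28.3 CPM in Fat4 Het and 190 ± 25.6 CPM in Fat4 WT kidneys (SD, n = 30 each), a log2 fold change of 0.09 ± 0.05 that did not pass, and the difference between the lines was -0.92 ± 0.08 (edgeR adjusted p = 2.83e-18). Amacr, Arg2 and Odc1 had -0.12 ± 0.10, 0.14 ± 0.12 and -0.06 ± 0.13 in Fat4 kidney, none of which passed, and differences of -1.28 ± 0.14, 1.21 ± 0.15 and -1.38 ± 0.17 (adjusted p = 8.11e-13, 1.79e-10 and 5.27e-11). The serine protease Tmprss9 fell by 1.45 ± 0.13 in Dchs1 kidney and rose by 0.49 ± 0.10 in Fat4 kidney, and the carboxylesterase Ces1e fell by 0.69 ± 0.06 and rose by 0.18 ± 0.05.

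Some of the rises were seen in Fat4 kidney at a smaller size. Cyp4a14 rose by 0.70 ± 0.24 there, Fga by 0.84 ± 0.22 and Ugt1a10 by 0.93 ± 0.29 (edgeR adjusted p = 0.0319, 0.00628 and 0.0186). Their differences between the lines were 1.29 ± 0.33, 1.5 ± 0.34 and 2.24 ± 0.40 (adjusted p = 0.0011, 0.00021 and 2.34e-06), larger in Dchs1 kidney in each case. The targets themselves differed as labelled. Dchs1 fell by 0.20 ± 0.05 in Fat4 kidney, against 1.19 in its own line, and Fat4 fell by 1.07 ± 0.06 in Fat4 kidney and rose by 0.19 in Dchs1 kidney.

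In the liver of the Dchs1 line, whose libraries may come from the same animals as the kidneys, since the labels do not say, Dchs1 fell as well, and Amacr, Odc1 and Slco3a1 differed from kidney. Within liver alone 6232 of 12526 genes passed (49.8%). The log2 fold change of Dchs1 in liver was -1.14 ± 0.10, and its difference from kidney was -0.06 ± 0.12 (edgeR adjusted p = 0.735). A test of the difference between the tissues (kidney minus liver) passed for 5299 of 14668 genes (36.1%). Odc1 rose in liver, to 90.0 ± 13.3 CPM in Het, against 63.6 ± 12.1 CPM in WT livers (SD, n = 29 and 30), a log2 fold change of 0.50 ± 0.06, and its difference between the tissues was -1.96 ± 0.13 (adjusted p = 3.92e-26). Amacr had -0.04 ± 0.05 in liver and did not pass (difference -1.38 ± 0.11), Slco3a1 fell there by 0.43 ± 0.07 at a low level (difference -0.42 ± 0.10), and Arg2 was too low to be tested in liver alone. Nudt19 and Cycs fell in kidney and rose in liver by 0.37 ± 0.04 and 0.57 ± 0.06, and Scnn1a rose in kidney and fell in liver by 0.78 ± 0.08.

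**Figure D5:**
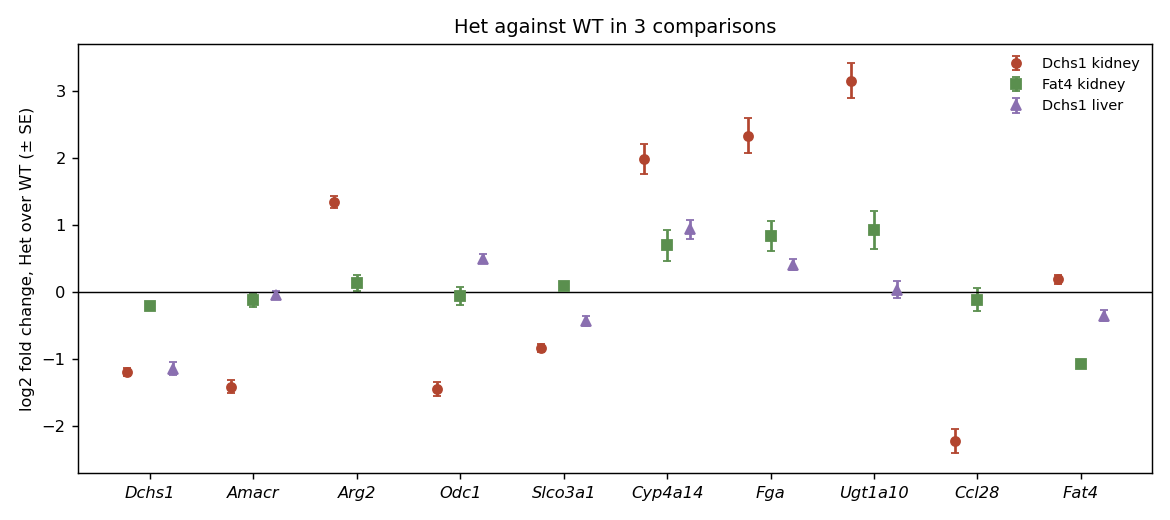
Log2 fold change (Het minus WT, with SE) of 10 genes in Dchs1 kidney, Fat4 kidney and Dchs1 liver, with no liver value for Arg2 and Ccl28, which were not tested there. Dchs1 falls by 1.19 in Dchs1 kidney and 1.14 in Dchs1 liver, whereas Amacr, Odc1 and Slco3a1 fall by 0.84 or more in Dchs1 kidney and by 0.43 or less, or not at all, in the other comparisons.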

How the data were processed

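Estimated counts per gene and library, which need not be whole (16.4% of the kidney values were not), and TPM of the same libraries were deposited by the authors. The deposited TPM, being corrected for length and summing to a fixed total, hold no information on depth. Reads were demultiplexed with bcl2fastq, FastQC was run and the genome build was GRCm38, per the submitters' processing notes, whereas for the aligner and the counting program no name was given in the sources used here. Of 24475 gene identifiers 24375 matched a RefSeq symbol (GRCm38.p6). All library columns matched a labelled library (0 were left unmatched), groups came from the labels, and no 2 libraries of a group agreed within sampling noise (lowest chi-square per gene 6.19 in Het and 4.31 in WT kidneys).

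For the 60 kidney libraries alone, rounded estimated counts were scaled by TMM, filtered by filterByExpr at a minimum count of 10 and a minimum total of 15, and put through the quasi-likelihood F test of edgeR 4.0.16 (R 4.3.3), with Benjamini-Hochberg adjustment over all genes tested. The SE was obtained by dividing the absolute log2 fold change by the root of F. Differences between lines and tissues came from interaction terms of the same test. Alternatives tried were DESeq2 1.42.0, DESeq2 size factors passed to edgeR, no filter, limma 3.58.1 on log2(TPM + 1) and log2(TPM + 0.1) for genes of at least 1 TPM in 20 libraries, and the stretch of consecutive library numbers as a covariate or as a subset. Correlations used log2(CPM + 0.5) and 100000 permutations. Python 3.11.15, pandas 2.3.3, scipy 1.17.1 and matplotlib 3.10.9 were used for summaries.

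The members and the 61 gene lists (930 of 933 entries matched) were chosen with earlier results of these data known. Genes were named by rule. It took the markers, the Fat and Dachsous list, the 12 smallest p, 10 largest rises and 10 largest falls among called genes with a mean of at least 1 CPM, up to 4 called members of each list with the smallest p, every tested Cyp4a and Slco member, the 5 neighbours of Dchs1 on each side and the 6 smallest p of each interaction test. A few genes that this rule takes are not reported here. In simulated data the kidney test recovered 38 of 50 changes of 1.2-fold and 50 of 50 of 1.5-fold, and 5.53% of its calls were unchanged genes. At 1.2-fold the test of the difference recovered 26 of 50 between the lines and 19 of 50 between the tissues, with 9.68% and 3.61% of calls unchanged. Totals of 10720364 or more leave a gene of 1 CPM with at least 10 reads per library, and these limits cover counting error only.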

Additional observations from a re-analysis of the deposited data

Results flagged for a closer look

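Among the markers and the genes with the smallest p in each test, the Het effect differed between lines or tissues in 18 gene comparisons (edgeR interaction test). They are a selection from the 4802 genes that passed between the lines and the 5299 that passed between the tissues. Values are differences of log2 fold changes, Dchs1 kidney minus the other comparison. Against Fat4 kidney the difference was -1.93 for the protease Tmprss9, -0.855 for the carboxylesterase Ces1e and -0.688 for Acsm2, which activates medium-chain fatty acids, and each of these was lower in Dchs1 Het kidneys. It was -1.28 for Amacr, 1.21 for Arg2, -1.38 for Odc1 and -0.922 for Slco3a1. The targeted genes gave 1.27 for Fat4 and -0.979 for Dchs1, as the genotypes of the lines set them.

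Against Dchs1 liver the difference was -1.96 for Odc1, -1.37 for Nudt19, -1.17 for Cycs and -1.35 for the calcineurin subunit Ppp3cc, genes that fell in kidney and rose in liver. Scnn1a, with 1.3, rose in kidney and fell in liver. The glyoxalase Glo1, with 0.997, had 0.03 ± 0.03 in kidney, which did not pass, and fell by 0.97 ± 0.07 in liver. Amacr gave -1.38 and Slco3a1 -0.42. Arg2 gave 0.65, but it was too low to be tested in liver alone and entered through its kidney level, so no difference between the tissues is read from it.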

How the results depend on the processing

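Every count of called genes stayed within 1.5 times its main value under DESeq2, its size factors, the number stretch as a covariate, the longest stretch alone, and without WT replicate 14 (6953) or the 2 Het libraries with adrenal genes (6469), both added after the data were seen. Among the libraries outside the longest stretch 1511 genes passed, 648 higher and 863 lower, and 164 at 1.5-fold or more higher. Of 255 log2 fold changes followed there, 155 were classed as the same, 95 as weaker and 5 as reversed. Of 122 list counts, 46 were classed as moved with limma on log2(TPM + 1). With no filter 527 and 589 genes were at least 1.5-fold higher and lower. With limma on log2(TPM + 1) 4968 were higher and 1358 lower, with 114 at least 1.5-fold lower, and with log2(TPM + 0.1) 1354 were lower, with 166 at least 1.5-fold lower. Reversed without passing were Fat4 (-0.10), Fjx1 (0.13), Lix1l (-0.15), Ehd3 (-0.00475) and Ucp1 (0.0569) outside the longest stretch, Tead1 (-0.00586) within it, Lix1l (-0.000973) without the 2 adrenal-marked Het libraries, and Fjx1 (0.0171 and 0.0128) and Tpp1 (0.0728 and 0.0717) with limma at pseudocounts 0.1 and 1. In WT kidneys the r of Dchs1 with Arg2 was 0.228 and with Fga 0.0289 without the 2 farthest libraries, and 0.0793 and 0.0103 without WT replicate 14. No longer passing by permutation test were Cyp4a14 with Fga in Het kidneys (0.43), Cyp4a14 with Arg2 in WT kidneys (0.471 without WT replicate 14) and Arg2 with Odc1 in WT kidneys (-0.308 and -0.385). The cause was not tested. No kidney library was outlying, so that alternative gave no value there. No paired analysis was possible because the labels give each library a number of its own and replicate numbers follow accession order.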
